A study of Mus musculus with 6 samples.

Results

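The genes described here carry signals through cyclic AMP, and they were measured in AtT-20 cells. This line comes from a mouse corticotrope tumour, and corticotropes are the pituitary cells that release ACTH. The genes are those whose platform symbol begins with Adcy, Prkac, Prkar, Akap or Pde plus a number, together with Gnas, Creb1, Crem, Crtc1, Crtc2 and Crtc3. This names 172 of the 45281 probes on the Illumina MouseWG-6 array and 65 genes, and the rule itself uses symbols and no measured value. A stable transgene lets doxycycline induce rat PAM-1, a copper-dependent granule enzyme that amidates peptides. Clone 14, clone 6_1 and clone 6_2 spent 48 h either in control medium or with doxycycline, with 1 culture and 1 array for each clone and medium, so that each medium has 3 arrays. Both media thus hold cells with the transgene, all grown in serum free of tetracycline, and the labels do not say if the 2 clones numbered 6 arose separately. The drug is given as 4 µg/ml in one label and as 4 mg/ml in another. Doxycycline-treated cells without the transgene were not analysed here, so effects of the drug and of PAM-1 cannot be told apart.

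In this pathway a hormone receptor activates the stimulatory G protein encoded by Gnas, which drives adenylyl cyclases to make cyclic AMP. The messenger frees the catalytic subunits of protein kinase A (PKA) from its regulatory subunits. A-kinase anchoring proteins (AKAPs) hold the kinase at particular places in the cell, and phosphodiesterases (PDEs) break the messenger down. In the nucleus PKA phosphorylates CREB, whose coactivators are the CRTC proteins. In corticotropes this is the route by which corticotropin-releasing hormone raises ACTH release and Pomc transcription.

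The corticotrope label was borne out by 5 to 6 of 8 corticotrope marker genes above background per array, Pomc and Tbx19 among them. Of 6 fibroblast and 3 immune marker genes 0 were above background on any array, and of 4 endothelial markers 1 was, Kdr. Of 7 marker genes of other pituitary hormone cells 1 to 2 were above background per array, the factor gene Gata2 on all 6 and the hormone subunit gene Cga on 1. Between 60 and 70 of the 172 probes were above background per array at a detection p under 0.01, 34.9% to 40.7%, against 35.8% to 37.9% of all probes. One array stood apart from the other 5, that of clone 6_1 in control medium: it lay at 56.5 on a first principal component that held 56.2% of the variance, against -33.7 to 18.7. It was the highest or the lowest of the 6 arrays for 41 of 67 tested probes of these genes, 61.2%, and for 62.1% of all tested probes. The detected probe for mouse Pam read 8.33 in control medium against 8.68 with doxycycline on the log2 scale (limma, adjusted p = 0.285), and does not check the rat transgene. With 3 arrays a group precision is limited, and p-values measure the spread between these cultures. In bulk RNA a change in the number of expressing cells and a change of RNA per cell cannot be told apart.

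Which parts of the pathway could be seen at all was the first question. Of the 65 genes, 32 had at least 1 probe above background on 3 or more of the 6 arrays and were tested, on 67 probes. A further 31 genes were above background on no array, and 2 on 1 array each (the RI-beta subunit gene Prkar1b and Pde6g of the retinal enzyme). Few adenylyl cyclases were seen: Adcy6 and Adcy9 were detected, each on 6 of 6 arrays by 1 probe, and Adcy1, Adcy2, Adcy3, Adcy4, Adcy5, Adcy7, Adcy8 and the soluble cyclase Adcy10 on none. This depends on the cutoff, since at a detection p under 0.05 on 3 arrays 3 cyclase probes were tested, 1 of them for Adcy7. The neuropeptide PACAP gene Adcyap1 and its receptor Adcyap1r1 were also detected on no array, on 4 probes together. Gnas, both PKA catalytic genes (Prkaca and Prkacb), the regulatory genes Prkar1a and Prkar2b, and all 5 of Creb1, Crem, Crtc1, Crtc2 and Crtc3 were detected. The regulatory gene Prkar2a was above background on no array on any of 3 probes.

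Among the anchoring proteins 11 of 16 genes were tested, and Akap4, Akap5, Akap6, Akap12 and Akap14 were detected on no array. Among genes with a Pde symbol 9 of 25 were tested: Pde1c, Pde4a, Pde4b, Pde4d, Pde7a, Pde10a, Pde12, Pde4dip and Pde6d. The last 3 are not cyclic nucleotide hydrolases, since Pde12 cuts RNA tails and oligoadenylates, Pde4dip (myomegalin) is a centrosome and Golgi scaffold that binds PDE4D, and Pde6d carries prenylated proteins. The 15 undetected Pde genes were Pde1a, Pde1b, Pde2a, Pde3a, Pde3b, Pde4c, Pde5a, Pde6a, Pde6b, Pde6c, Pde6h, Pde7b, Pde8b, Pde9a and Pde11a. A probe that is not above background may also miss its transcript, so an undetected gene is not shown to be silent. Levels of different probes are not compared with each other.

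**Figure D1:**
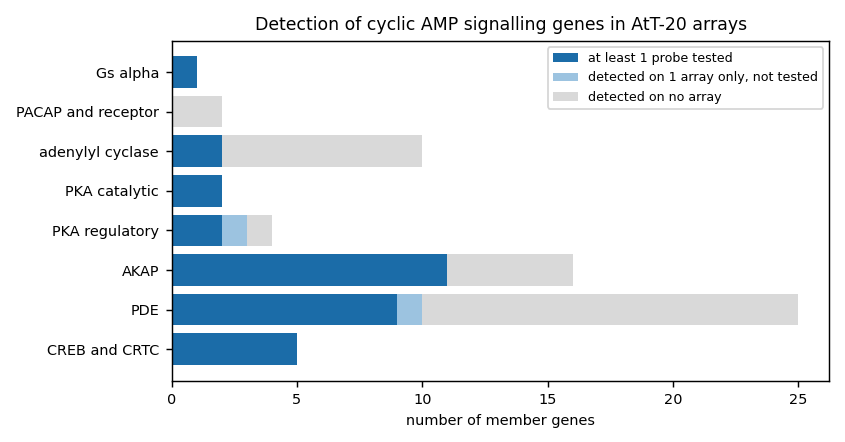
Number of member genes by class (horizontal axis), split into genes with at least 1 tested probe (dark), genes detected on 1 array and not tested (light blue) and genes detected on no array (grey). Of 10 adenylyl cyclase genes 2 were tested, against 11 of 16 AKAP genes and all 5 CREB and CRTC genes.

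The main comparison asked whether this pathway's transcripts moved after 48 h in the inducing medium. None of the 67 tested probes passed in limma with clone as a block, at an adjusted p under 0.05 over all 16902 tested probes, of which 0.314% passed. The lowest adjusted p among them was 0.108, for Adcy9. At an unadjusted p under 0.05 there were 9 probes, all lower with doxycycline: Adcy9, Pde7a, Akap11, Akap1, Akap10, Pde1c, Prkacb and 2 for Akap9. That is 9 of 67 lower against 10.6% of all tested probes, and 0 of 67 higher against 11.6%. Together this is 13.4% of these probes against 22.3% of all. The arrays of the 2 media did not overlap for 14 of the 67, 11 with doxycycline lower and 3 higher, or 20.9% against 24.5% of all tested probes. Among the 11 is Akap13, which met the detection filter on control arrays only and is no support here or in the counts of lower probes below. Without clone 6_1, whose control array stood apart, 20 of 68 probes had an unadjusted p under 0.05, 14 lower and 6 higher, against 11.3% of all probes in each direction and 22.6% together. The 14 include 3 CREB and CRTC probes (Creb1 ILMN_3120454, Crtc2 and Crtc1 ILMN_1215149) that were above background in that fit on control arrays only. The filter thus set the direction of these 3, and they are no support. In that fit 0 of 68 passed after adjustment, against 0.357% of all probes. Without clone 14 1 probe passed after adjustment, that of Pde1c described below, in a fit with 1 variance for all probes.

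All levels below are log2 normalised intensities and all changes are doxycycline minus control on that scale. The probes of these genes leaned low in each clone. In clones 14, 6_1 and 6_2 they were lower with doxycycline in 41, 41 and 43 of 67 cases, or 61.2%, 61.2% and 64.2%, against 50.5%, 50.1% and 51.8% of all tested probes. Their median change was -0.14, -0.20 and -0.09 on the log2 scale in the 3 clones and -0.10 in the fit, against -0.01 for all probes in the fit. In all 3 clones 20 of 67 were lower, against 24.7% of all tested probes, and 4 were higher, against 23.9%. The 95% intervals of the 67 changes reached from -1.28 at the lowest to 1.07 at the highest, and the interval holds 0 for all but the 9 probes named above. The smallest change that passed anywhere on the array was 1.05.

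**Figure D2:**
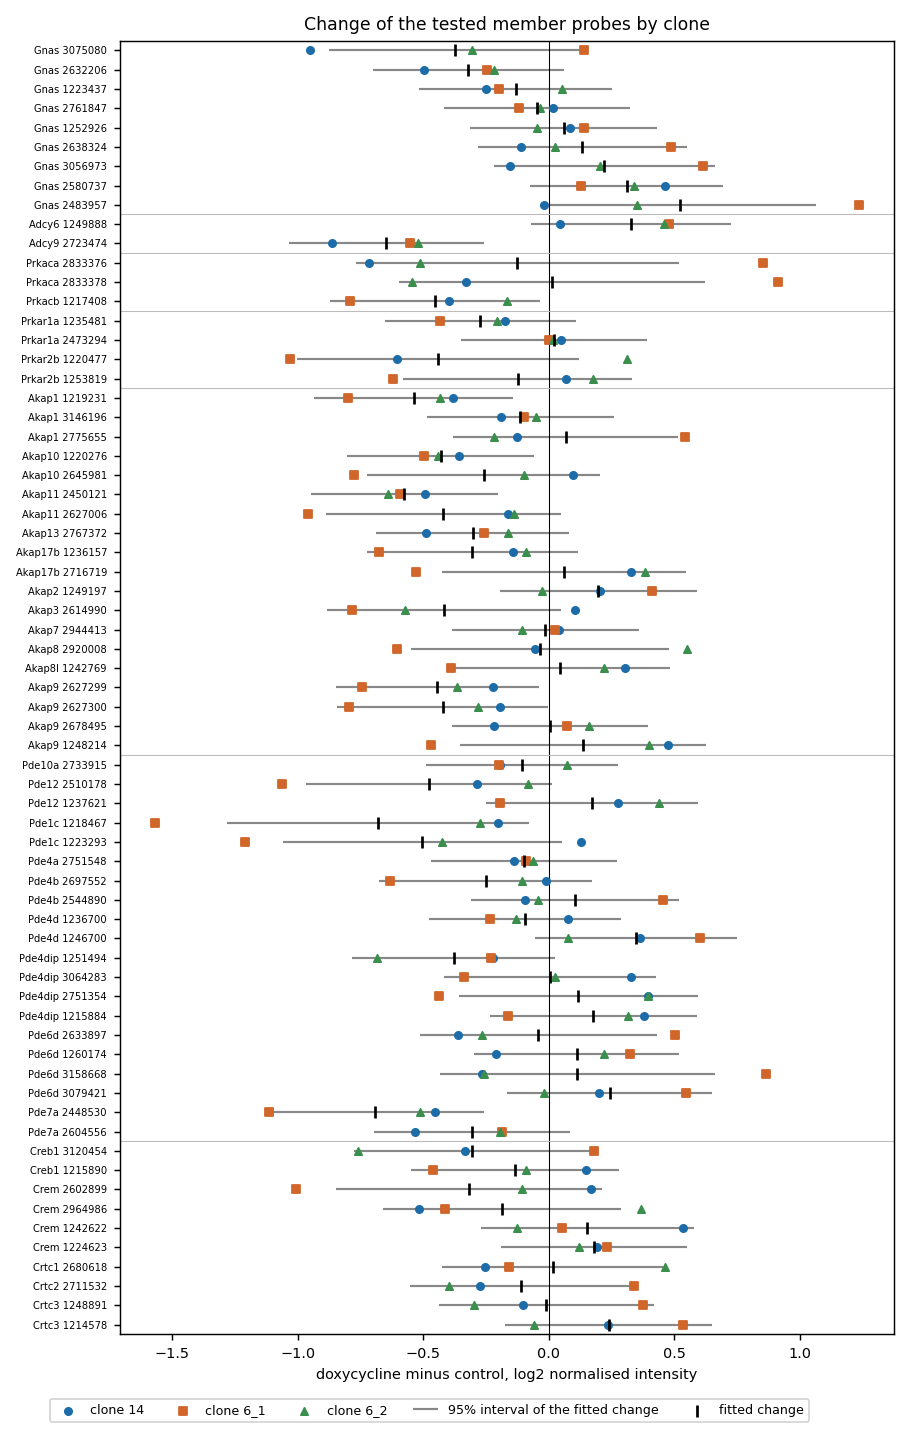
Doxycycline minus control in log2 normalised intensity (horizontal axis) for each of the 67 tested probes, in the order Gnas, cyclases, PKA, AKAPs, PDEs, then CREB and CRTC. Symbols are the 3 clones with 1 array per medium, black ticks the fitted change and grey lines its 95% interval; the 9 probes whose interval leaves out 0 all lie to the left.

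Gnas had 9 tested probes, which the platform assigns to 6 different transcripts, 1 of them noncoding, and 1 probe to none. This imprinted locus gives rise to several transcripts from separate promoters, and the probes did not move together: 5 read higher and 4 lower with doxycycline, from -0.37 to 0.52. The lower end was probe ILMN_3075080, of the noncoding transcript, at -0.37 (SE 0.22), with -0.95, 0.14 and -0.30 in clones 14, 6_1 and 6_2 and -0.083 without clone 14 or -0.63 without clone 6_1. The upper end was ILMN_2483957, which read 8.37, 7.75 and 7.97 in control medium in clones 14, 6_1 and 6_2 and 8.36, 8.99 and 8.32 with doxycycline. Its groups overlapped, and the difference of 0.52 (SE 0.24, adjusted p = 0.238) came to 0.17 without clone 6_1 and to 0.79 without clone 14. The probe ILMN_2632206 was lower on every doxycycline array, at 12.84, 12.98 and 12.90 against 13.33, 13.22 and 13.12 in control medium, a difference of -0.32 (SE 0.17) with an adjusted p = 0.286 in limma.

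The detected cyclases read in opposite directions. Adcy9, a broadly expressed cyclase that forskolin activates little, read 9.75, 9.68 and 9.40 in control medium in clones 14, 6_1 and 6_2 and 8.89, 9.13 and 8.88 with doxycycline. All 3 doxycycline arrays lay below all 3 control arrays, with differences of -0.87, -0.55 and -0.52. The means were 9.61 ± 0.19 and 8.96 ± 0.14 (SD, n = 3 arrays each), 1.57-fold lower with doxycycline, and the difference of -0.65 (SE 0.17, 95% interval -1.03 to -0.26) did not pass (limma, adjusted p = 0.108). Adcy6, a cyclase inhibited by calcium, read 7.25, 6.78 and 6.98 in control medium against 7.29, 7.26 and 7.44 with doxycycline. The doxycycline arrays lay above the control arrays, though in clone 14 by only 0.04, and the difference was 0.33 (SE 0.18, adjusted p = 0.296 in limma). The array had 1 probe for Adcy9 and 3 for Adcy6, and the other 2 Adcy6 probes were above background on no array.

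Of the PKA catalytic genes Prkacb was lower on every doxycycline array. It read 12.83, 13.21 and 12.99 in control medium in clones 14, 6_1 and 6_2 and 12.43, 12.41 and 12.82 with doxycycline. The difference was -0.45 (SE 0.18, 95% interval -0.87 to -0.04) and did not pass (limma, adjusted p = 0.198), and it was -0.28 without clone 6_1. Prkaca, which encodes the other main catalytic subunit, went one way in clone 6_1 and the other way in the remaining clones on both of its probes. ILMN_2833376 read 10.60, 9.52 and 10.28 in control medium against 9.88, 10.37 and 9.76 with doxycycline, or changes of -0.72, 0.85 and -0.51. ILMN_2833378 read 10.13, 9.14 and 10.24 in control medium against 9.81, 10.05 and 9.69 with doxycycline, or changes of -0.33, 0.91 and -0.55. On both probes the control array of clone 6_1 was the lowest of all 6, and the fitted differences were -0.13 (SE 0.28) and 0.01 (SE 0.27), with adjusted p = 0.812 and 0.984 in limma. Without clone 6_1 they were -0.62 and -0.44, and neither passed. Clone 6_1 did not share the direction common to both other clones for 19 of the 67 probes, 28.4%, and for 18.6% of all tested probes. The 19 include Prkar1a ILMN_2473294, whose change in clone 6_1 was 0. With 1 culture per clone and medium the difference between clones in their response was not tested.

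Of the regulatory genes Prkar1a, the type I subunit found in most cells, is shown with its promoter. Among the 52 genes with a promoter window it was the only one with a full cyclic AMP response element in a window. That element (CRE, TGACGTCA) is the palindromic site that CREB binds. The window below (RefSeq, GRCm38.p6, chr11:109650699-109650998, plus strand) runs from 250 bases before the transcript start to 50 after it, and the element begins 49 bases before the start. Capitals mark the element and a further match to its core, TGACG or CGTCA on the other strand.
Prkar1a: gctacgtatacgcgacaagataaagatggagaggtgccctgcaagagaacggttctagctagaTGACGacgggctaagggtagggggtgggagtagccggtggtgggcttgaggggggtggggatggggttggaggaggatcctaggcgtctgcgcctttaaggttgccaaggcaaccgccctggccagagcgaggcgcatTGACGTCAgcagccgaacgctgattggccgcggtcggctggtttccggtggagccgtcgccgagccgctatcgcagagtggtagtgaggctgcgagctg
Another Prkar1a start, upstream of this one, has the same element after its start, so the match may lie in the transcript. Of the 65 genes 52 had a promoter window, and the full element was in 1 of them, 1.92%, against 2.03% of all 27025 genes with a window. Of the tested genes here it was in 1 of 27, 3.7%, against 3.94% of all genes with a tested probe. The core, within the full element or apart from it, was in 17 of the 52, 32.7%, against 23% of all genes. Of the tested genes here it was in 9 of 27, 33.3%, against 37.3% of all genes with a tested probe. In a list of genes known as CREB targets the full element was in 7 of 28, 25%. The match is a description of these letters and not evidence of binding.

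Prkar1a itself read 13.41, 13.79 and 13.57 in control medium in clones 14, 6_1 and 6_2 and 13.23, 13.36 and 13.37 with doxycycline on ILMN_1235481. These groups did not overlap, with a difference of -0.27 (SE 0.17, adjusted p = 0.352 in limma). Its other probe, ILMN_2473294, read 11.26, 11.39 and 11.29 against 11.31, 11.39 and 11.31, a difference of 0.02 (95% interval -0.35 to 0.39). Prkar2b, the type II subunit of neuroendocrine cells, read 11.34, 11.70 and 10.92 in control medium against 11.41, 11.08 and 11.10 with doxycycline on ILMN_1253819, and the groups overlapped (-0.12, SE 0.20). Its other probe, ILMN_1220477, was above background on 3 control arrays and 1 doxycycline array and read -0.44 (SE 0.25, adjusted p = 0.315 in limma). Its clones went both ways, at -0.60, -1.03 and 0.31, and the value was -0.15 without clone 6_1 and -0.83 without clone 6_2. Without clone 6_2 this probe was above background on control arrays only, so the filter set its direction and the -0.83 is no support.

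The anchoring proteins had the lowest median change among the classes with 9 or more tested probes. Of 19 tested AKAP probes 13 read lower with doxycycline, against 8743 of all 16902. In all 3 clones 9 were lower, against 24.7% of all tested probes, and 0 higher, against 23.9%, with a median change of -0.26 against -0.01 for all probes. For 6 of the 19 all doxycycline arrays lay below all control arrays, against 12.5% of all tested probes, and for 0 above them, against 12.1%. The 13, the 9 and the 6 each include Akap13, which met the detection filter on control arrays only, so it is no support. Of 17 AKAP probes above background on all 6 arrays, 12 read lower and 5 higher, at a median of -0.26. None of the 19 passed, and 5 had an unadjusted p under 0.05, all lower, against 10.6% of all tested probes. The control array of clone 6_1 was the highest of the 6 for 13 of the 19, against 31.0% of all tested probes, and the part of that array in the result was not tested. Without clone 6_1 14 of 19 read lower, at a median of -0.12, with 3 lower and 2 higher at an unadjusted p under 0.05, where 11.3% of all probes lay in each direction. The class's median stayed below that of all probes in every setting tried, from -0.35 with median scaling to -0.04 with no filter.

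Akap11, a large anchor that also binds the kinase GSK3, read 10.28, 10.86 and 10.84 in control medium in clones 14, 6_1 and 6_2 and 9.79, 10.27 and 10.20 with doxycycline on ILMN_2450121. The groups did not overlap, and the clones were close to each other in their changes, at -0.49, -0.59 and -0.64. The fitted difference was -0.58 (SE 0.16, 95% interval -0.95 to -0.20), 1.49-fold lower, and did not pass (limma, adjusted p = 0.119). Its other probe, ILMN_2627006, read -0.42 (SE 0.21), with -0.16, -0.96 and -0.14 in the clones and -0.15 without clone 6_1.

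Akap1, which anchors PKA at the outer mitochondrial membrane, read 10.07, 10.78 and 10.50 in control medium against 9.69, 9.98 and 10.06 with doxycycline on ILMN_1219231, again without overlap. This was -0.54 (SE 0.17, adjusted p = 0.141 in limma), but its 2 other tested probes read -0.11 (SE 0.16) and 0.07 (SE 0.20). Akap10, another anchor linked to mitochondria and endosomes, read 9.18, 8.96 and 9.19 in control medium against 8.82, 8.46 and 8.75 with doxycycline on ILMN_1220276. Those groups did not overlap either (-0.43, SE 0.16, adjusted p = 0.179 in limma), and its second probe read -0.26 (SE 0.21).

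Akap9, the giant anchor of the centrosome and Golgi, had 4 tested probes that did not read alike. ILMN_2627299 read 12.31, 12.95 and 12.67 in control medium against 12.09, 12.21 and 12.30 with doxycycline, a difference of -0.44 (SE 0.18, adjusted p = 0.195 in limma) that was -0.29 without clone 6_1. ILMN_2627300 gave -0.42 (SE 0.19), ILMN_2678495 gave 0.00 (SE 0.17), and ILMN_1248214, above background on 3 of 6 arrays, gave 0.14 (SE 0.22). Akap3, an anchor known from the sperm tail, read 7.49, 7.49 and 7.34 in control medium against 7.60, 6.71 and 6.76 with doxycycline, so it was lower in clones 6_1 and 6_2 but not in clone 14 (-0.42, SE 0.21), and the value was -0.24 without clone 6_1 and -0.67 without clone 14. Akap13 was above background on 3 control arrays and 0 doxycycline arrays, too close to background to give a bound on its fold. The remaining anchors Akap2, Akap7, Akap8, Akap8l and Akap17b had changes of -0.30 to 0.20 on 6 probes.

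Among the PDE genes Pde7a, a cyclic AMP-specific enzyme with high affinity, showed the largest lower reading of any of the 67 probes. ILMN_2448530 read 7.65, 8.19 and 7.57 in control medium in clones 14, 6_1 and 6_2 and 7.20, 7.08 and 7.06 with doxycycline. Every doxycycline array lay below every control array, and the means were 7.81 ± 0.34 and 7.11 ± 0.08 (SD, n = 3 arrays each), 1.62-fold apart. The difference of -0.69 (SE 0.19, 95% interval -1.13 to -0.26) did not pass (limma, adjusted p = 0.115). Its other probe, ILMN_2604556, was also lower in all clones, at -0.53, -0.19 and -0.20, with overlapping groups and a fitted -0.31 (SE 0.17).

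Pde1c, a calcium and calmodulin-stimulated enzyme that breaks down both cyclic AMP and cyclic GMP, rested on clone 6_1. ILMN_1218467 read 6.77, 8.28 and 7.50 in control medium against 6.57, 6.71 and 7.22 with doxycycline, with changes of -0.20, -1.57 and -0.27. Its groups overlapped, and the fitted difference was -0.68 (SE 0.27, adjusted p = 0.185 in limma). Without clone 14 it was -0.91 and passed (limma, adjusted p = 0.0396), as did 4.44% of all probes in that fit. That fit used 1 variance for all probes, so its p does not measure the spread between the changes of -1.57 and -0.27. Without clone 6_1 the difference was -0.24. ILMN_1223293 read 8.28, 9.62 and 9.22 in control medium against 8.41, 8.41 and 8.79 with doxycycline, changes of 0.13, -1.21 and -0.43, and its fitted -0.50 was -0.15 without clone 6_1 and -0.82 without clone 14. On both probes the control array of clone 6_1 was the highest of the 6.

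The PDE4 enzymes, which are specific for cyclic AMP and carry out much of its breakdown in many cells, had changes of -0.25 to 0.35 on 5 probes. Pde4a read -0.10 (SE 0.16, 95% interval -0.47 to 0.27) on its tested probe. Pde4b read 0.10 (SE 0.18) and -0.25 (SE 0.19), and Pde4d -0.10 (SE 0.17) and 0.35 (SE 0.18), the latter on a probe above background on 1 control array and 2 doxycycline arrays and 0.22 without clone 6_1. Pde10a, known for its role in the striatum, read -0.11. Of the genes that share only the symbol, Pde4dip ranged from -0.38 (SE 0.18, -0.23 without clone 6_2) on ILMN_1251494 to 0.18 on its 4 probes and Pde6d from -0.04 to 0.24 on its 4 probes. Pde12 read -0.48 (SE 0.22) on ILMN_2510178, with -0.28, -1.06 and -0.08 in clones 14, 6_1 and 6_2 and -0.19 without clone 6_1, and 0.17 (SE 0.19) on its other probe.

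**Figure D3:**
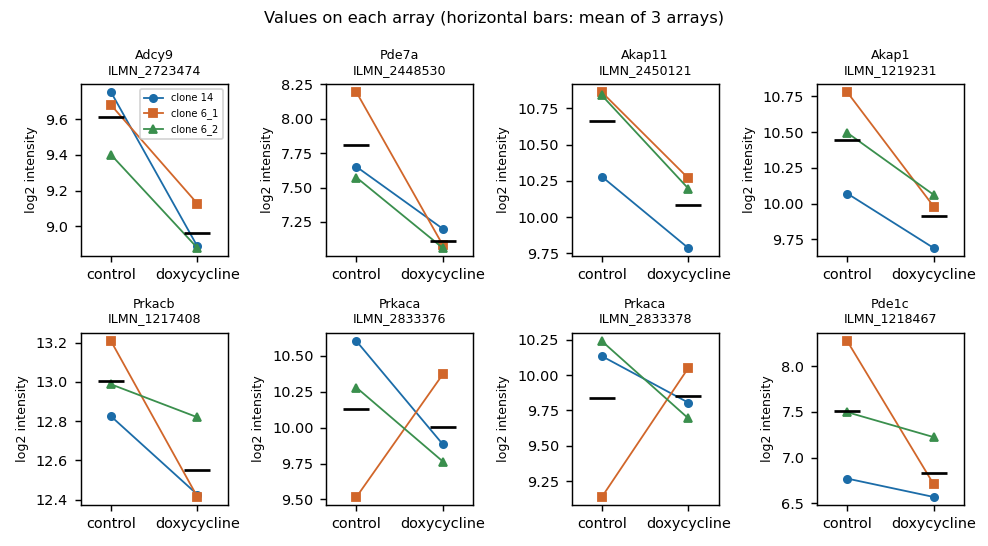
Log2 normalised intensity (vertical axes, each with its own range) of 8 probes on each array, with lines joining the control and doxycycline arrays of a clone and bars at the mean of 3 arrays. Adcy9, Pde7a, Akap11, Akap1 and Prkacb were lower in every clone, both Prkaca probes were higher in clone 6_1 alone, and Pde1c was lower by 1.57 in clone 6_1 against 0.20 and 0.27 in the others.

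The CREB and CRTC genes showed 0 of 10 tested probes at an unadjusted p under 0.05, against 22.3% of all tested probes, and a median change of -0.06. Creb1, the factor that PKA phosphorylates, read 7.51, 8.10 and 7.91 in control medium in clones 14, 6_1 and 6_2 and 7.66, 7.64 and 7.82 with doxycycline on ILMN_1215890 (-0.13, 95% interval -0.55 to 0.28). Its groups overlapped, and its other probe, above background on 4 of 6 arrays, read -0.31 (SE 0.21), with -0.33, 0.18 and -0.76 in the clones. That value was -0.56 without clone 6_1 and -0.077 without clone 6_2. Without clone 6_1 this probe was above background on control arrays only, so the filter set its direction and the -0.56 is no support. Crem, which encodes activators and, from an internal promoter, the inducible repressor ICER, ranged from -0.32 (SE 0.23) to 0.18 (SE 0.16) on 4 probes with 2 higher and 2 lower, and the lowest, ILMN_2602899, was 0.030 without clone 6_1 and -0.55 without clone 14. Which of them reads ICER was not analysed here. Crtc3 read 0.24 (SE 0.18) and -0.01 (SE 0.19), Crtc1 0.02 (SE 0.19), and Crtc2, above background on 3 of 6 arrays, -0.11 (SE 0.20).

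Probes of one gene often disagreed: of 19 genes with over 1 tested probe, 13 had probes of both signs, 6 had all probes lower (Akap10, Akap11, Creb1, Pde1c, Pde7a and Prkar2b), and 0 had all higher. The median span between the highest and the lowest change of a gene was 0.36. With 1 probe per gene, 23 of 32 genes read lower and 9 higher, at a median of -0.12 against 0.00 for all genes, and 0 passed.

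The clones were compared in the same fit, with 2 arrays per clone. None of the 67 probes passed between clone 6_1 and 14, clone 6_2 and 14, or clone 6_2 and 6_1, where 0.136%, 0.142% and 0.00% of all tested probes passed. At an unadjusted p under 0.05, 10 probes differed between clones 6_1 and 14, against 15.6% of all tested probes. Of these 9 were higher in clone 6_1, against 7.57%, and 1 was lower, against 8.02%. Between clones 6_2 and 14 there were 6, against 10.7%, all of them higher in clone 6_2, against 5.36%, and between clones 6_2 and 6_1 there were 0, against 2.67%. The 9 and the 6 each include Pde12 ILMN_2510178 and Akap9 ILMN_1248214, which were above background on no clone 14 array. The filter thus set the direction of these probes, and they are no support.

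Akap11 and Pde12 had the lowest p in both comparisons with clone 14, but Pde12 is no support. On ILMN_2627006 Akap11 had means of 6.32, 7.42 and 7.62 in clones 14, 6_1 and 6_2, and both clone 14 arrays lay below the other 4. It was 1.11 higher in clone 6_1 than in clone 14 (SE 0.25, adjusted p = 0.118 in limma) and 1.30 higher in clone 6_2 (SE 0.25, adjusted p = 0.119). Its probe ILMN_2450121 gave 0.53 (SE 0.20) and 0.49 (SE 0.20), the same direction at a smaller size. Pde12 was above background on no clone 14 array on ILMN_2510178 and met the detection filter only through clones 6_1 and 6_2, which set its direction. It was at least 1.82-fold higher in clone 6_1 and at least 1.53-fold higher in clone 6_2 (limma, adjusted p = 0.108 and 0.228). For Gnas, ILMN_2580737 averaged 9.99, 10.57 and 10.56 in clones 14, 6_1 and 6_2, and ILMN_3056973 averaged 7.41, 7.72 and 8.12.

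These counts depended on which clones were in the fit. With a clone left out, a probe was tested if above background on 2 arrays. Without clone 6_1, 5 of 68 probes passed between clones 6_2 and 14, as did 6.32% of all probes. All 5 were higher in clone 6_2, as were 2.88% of all probes. Akap11 was higher by 1.32 (SE 0.14, adjusted p = 0.00765 in limma), Gnas by 0.72 and Pde1c by 0.70. The Pde12 and Akap9 probes were above background in this fit only in clone 6_2. The filter thus set their direction, and they are no support. Without clone 6_2, 3 of 67 passed between clones 6_1 and 14, as did 2.26% of all probes. All 3 were higher in clone 6_1, as were 0.983% of all probes. They were Akap11 by 1.12, Pde12, and Pde1c on a probe that the full fit left out. Pde12 and that Pde1c probe were above background in this fit only in clone 6_1. The filter thus set their direction, and they are no support. This fit used 1 variance for all probes, so passing there does not reflect a probe's own spread.

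**Figure D4:**
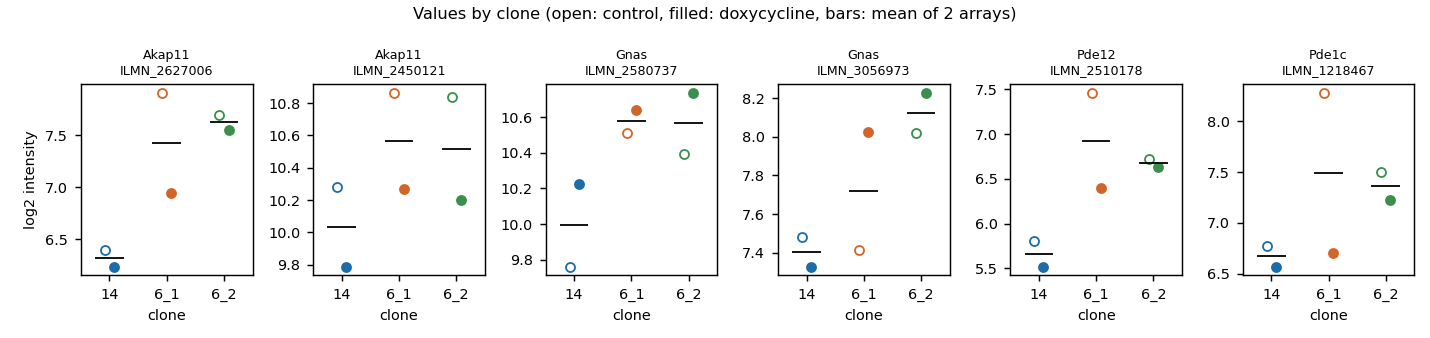
Log2 normalised intensity (vertical axes, each with its own range) by clone for 6 probes, open circles for control and filled circles for doxycycline, with bars at the mean of 2 arrays per clone. On ILMN_2627006 both Akap11 values of clone 14 lie below the 4 values of the other clones, around means of 6.32 against 7.42 and 7.62.

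The genes around this pathway were read from lists, beside all tested probes, of which 48.3% read higher and 0.314% passed. Of receptors coupled to cyclic AMP, 4 of 21 genes on the array were tested, on 6 probes that all read higher with doxycycline at a median of 0.41, and 0 passed. The receptor of corticotropin-releasing hormone, Crhr1, read 0.65 (SE 0.17) and 0.51 (SE 0.17) on its 2 probes, with doxycycline above control without overlap on both (limma, adjusted p = 0.111 and 0.142). The somatostatin receptor Sstr5, which couples to inhibition of the cyclases, read 0.46 (SE 0.18) on one probe and 0.08 (SE 0.17) on the other, and the incretin receptor Gipr 0.36 (SE 0.17). The G protein subunits and regulators had 12 of 26 probes higher and 14 lower, at a median of -0.02, and 0 passed. Ric8b, a chaperone that supports the folding of stimulatory G alpha subunits, read -0.62 (SE 0.17) and -0.36 (SE 0.18) on its 2 probes. Gpsm2 read 6.47 in control medium but was above background on no doxycycline array. It met the detection filter on control arrays only and is no support here or in the count of lower probes.

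Other effectors and inhibitors had 16 of 25 probes lower, against 8743 of all 16902, at a median of -0.19, and 0 passed. The PKA inhibitor Pkia read -0.58 (SE 0.20, adjusted p = 0.153 in limma). Rapgef6, an exchange factor for Rap proteins, read -0.52 (SE 0.19) on its probe of smallest p, and Arpp19 -0.55 (SE 0.20) and 0.55 (SE 0.21) on probes of opposite sign. CREB coactivators, relatives and the kinases and phosphatases of the CRTC proteins had 22 of 29 probes lower, at a median of -0.17. The median of all tested probes was -0.01, and 0 of the 29 passed. The phosphatase catalytic genes Ppp1cc and Ppp1cb read -0.47 (SE 0.18) and -0.46 (SE 0.20) on their probes of smallest p, and the CREB relative Crebl2 -0.46 (SE 0.20).

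Of the genes known as CREB targets 13 of 30 probes read higher and 17 lower, at a median of -0.09, with 7 higher and 4 lower at an unadjusted p under 0.05, against 11.6% and 10.6% of all tested probes, and 0 passing. Fos, an early response factor, read -1.31 (SE 0.22, adjusted p = 0.0574 in limma), with -0.75, -1.88 and -1.31 in clones 14, 6_1 and 6_2, while its groups overlapped. The stress gene Gadd45b read 0.74 (SE 0.17, adjusted p = 0.0929) and 0.50 (SE 0.20), and Bcl2 0.91 (SE 0.22) on 1 of its 6 tested probes, with -0.16 to 0.11 on the others. Pomc read 0.08 (SE 0.16) and -0.17 (SE 0.20).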

How the data were processed

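RNA of 6 cultures was hybridised to Illumina MouseWG-6 v2.0 arrays, 1 array per clone and medium. The authors deposited a non-normalised intensity for each of 45281 probes and, per the file headers, a p-value of its detection. Per the submitters' processing notes the tools were BeadStudio and GenomeStudio, whose versions are not given in the sources used here. A table of the authors' processed intensity served as an alternative, and 0 columns of other series were present. Intensities were background-corrected by normexp, quantile-normalised with an offset of 16 (neqc) and put on the log2 scale. Probes with a detection p under 0.01 on 3 of 6 arrays were tested in limma 3.58.1 (R 4.3.3) with clone as a block, Benjamini-Hochberg adjustment over all 16902 probes and a threshold of 0.05. With a clone left out, the filter was 2 arrays. The scripts were tested on simulated data. Probes took their gene from the platform annotation, and 64 of 65 symbols matched RefSeq.

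The clone number pairs the arrays by the labels, since both media hold the same clone. The correlations of the paired deviations were 0.54, -0.02 and 0.14 for clones 14, 6_1 and 6_2. The symbol rule uses no measured value, but these members and the lists were chosen with earlier results of these data known. Named were Gnas, Creb1, Crem, the Crtc, Prkac and Prkar genes, the 5 genes of smallest p in the Adcy, Akap and Pde classes and the 3 of smallest p in each clone comparison, up to 3 genes of smallest p per list, and Crhr1, Pomc and Pam. Other members have a change or a detection count. Alternatives were no block, each clone left out, other background correction and scaling, the authors' values, other detection filters and 1 probe per gene.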

Additional observations from a re-analysis of the deposited data

Results flagged for a closer look

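Pde6g, the gene of an inhibitory subunit of the retinal phosphodiesterase, was left out of the test because it was above background on 1 array only. Its highest doxycycline value was 6.15 on ILMN_2590508 on the log2 scale, above its highest control value of 5.90. Both were in clone 14, and the 6.15 lay at the lowest detected value of its array, also 6.15, so it is a reading at the detection limit. Pde6g is listed because its highest doxycycline value exceeded every control value in data that the comparisons did not use. Of the other 6 probes detected on 1 or 2 arrays and not tested, all had their highest value in control medium, among them Pde1c ILMN_1223545 at 7.43 against 6.28 and Crtc1 ILMN_1215149 at 6.51 against 5.81.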

How the results depend on the processing

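Between doxycycline and control the number of these probes that passed was 0 in every alternative except without clone 14, where it was 1, so that it lay between 0 and 1 with a clone left out. The fits without clone 14 and without clone 6_2 used 1 variance for all probes, so their p-values do not measure a probe's own spread. Without the replicate block (the unpaired fit) 0 passed, 7 had an unadjusted p under 0.05 and 33 of all probes passed against 53. Between clones 6_2 and 14 the number was 5 without clone 6_1, and between clones 6_1 and 14 it was 3 without clone 6_2. Both counts include probes that were above background only in the higher clone. The median change of -0.10 was -0.035 with no filter, -0.056 with the authors' processed values and -0.15 with median scaling. Over 519 alternative values of 46 named probes 20 reversed, in 15 probes, none of which had a change over 0.32 in size, and the cause was not tested. With median scaling, which moved the median of all probes to -0.09, the reversed values were -0.089 for Crtc1, -0.074 for Prkaca ILMN_2833378 and -0.0056 for Prkar1a ILMN_2473294. With a clone left out in turn, the values ran from -0.34 to 0.033 for Crtc2, -0.035 to 0.44 for Akap9 ILMN_1248214, -0.021 to 0.40 for Pde4dip ILMN_2751354 and -0.21 to 0.15 for Crtc1. They ran from -0.33 to 0.25 for Akap8, -0.20 to 0.14 for Crtc3 ILMN_1248891, -0.28 to 0.028 for Creb1 ILMN_1215890, -0.036 to 0.29 for Crem ILMN_1242622 and -0.55 to 0.030 for Crem ILMN_2602899. They ran from -0.042 to 0.26 for Gnas ILMN_2638324, -0.26 to 0.30 for Pde6d ILMN_3158668, -0.44 to 0.29 for Prkaca ILMN_2833378, -0.62 to 0.17 for Prkaca ILMN_2833376 and -0.28 to 0.12 for Prkar2b ILMN_1253819. The Crtc2 value of -0.34 came without clone 6_1, where its probe was above background on control arrays only, and is no support. Signal over background limits the 98 probes above it on no array.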
